A study of Oryza sativa with 19 samples.

Results

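The probes described here are the 1028 oligonucleotide probes whose names start with AK, which were designed on rice full-length cDNA clones and are named by the identifiers of those clones. They were chosen by their name alone, with control spots left out, among the 83040 distinct non-control probes of 2 array designs called S1 and S2. The AK probes were the only non-control probes that both designs carried, and they made up 2.45% of the 42034 non-control probes of a design. The remaining 82012 probes were on 1 design each.

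The study asked whether loci of the rice genome give rise to RNA, and measured total RNA on 19 Agilent arrays, of which 10 were of design S1 and 9 of S2. The samples were root, panicle and callus of Nipponbare (NB, a japonica rice), shoot of IR64 (an indica rice) and shoot of Nipponbare. No plant carried a transgene or a mutant allele in the labels. There were 2 replicate arrays for a tissue and design, but only 1 for NB panicle on S2. Every array was self-hybridized, which means that a single sample was labelled with both Cy3 and Cy5. Per the labels and the methods, shoots came from soil in a greenhouse, roots from hydroponic culture in a growth chamber, panicles from the field at the late-boot stage, and callus from 28 days on a medium with the auxin 2,4-D. The labels give 10 days of growth for shoots and roots, while the methods give an older age for shoots. The labels name Trizol for the RNA of IR64 and RNeasy for that of NB, while the methods name Trizol for all shoots. By the methods the other tissues were extracted with RNeasy, so the kit would differ between NB shoot and root, panicle and callus. Tissue and growth place therefore cannot be told apart. The kit cannot be told apart from variety by the labels, nor from shoot against the other tissues by the methods.

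Full-length cDNA clones are copies of mature messenger RNA from the cap to the poly(A) tail. A transcript that is abundant in the RNA used for a library is picked more often, so collections of such clones are rich in strongly transcribed genes. Shoots hold green, photosynthetic tissue, roots take up water and minerals, panicles at the late-boot stage carry developing flowers, and callus is a mass of dividing cells kept undifferentiated by auxin. No table used here annotates the AK identifiers, since 0 of 1028 matched the reference table of rice genes. The study's text lists 3 of the clones for a protein domain that they lack, and the others are given by identifier and clone name only. The study's supplement gives mapping positions and loci for its cDNA clones, but these were not used here. A check of the tissue labels on photosynthesis or cell division genes was therefore not made. The probe sequences are not printed here because the array files withhold them.

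The AK probes were bright in every tissue. Signals are given as log2 of the processed signal after each channel was scaled to a median of 1000 over the non-control probes, limited to 100000 (log2 16.61) and averaged over the channels. On that scale the median AK probe had a signal of 36475 to 70301 on the root arrays, 40999 to 45169 on panicle, 28133 to 65336 on callus, 17621 to 29033 on IR64 shoot and 23486 to 29036 on NB shoot. The median of all other probes was between 916 and 945 on every array, since the scaling holds it near 1000. Between 93.9% and 97.0% of the other probes of an array lay below its median AK probe. Well above background in both channels, here called detected, were 1024 to 1028 of the 1028 probes on each array.

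**Figure D1:**
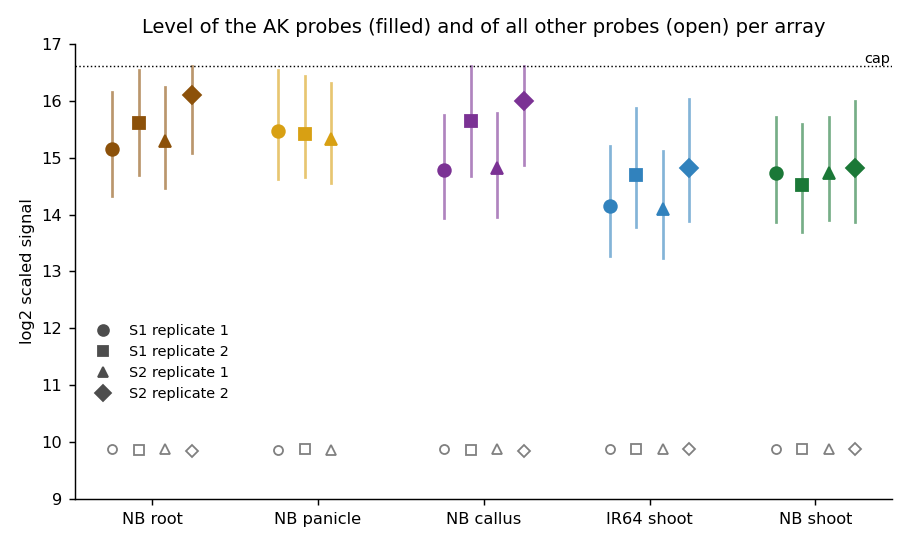
Median log2 scaled signal of the 1028 AK probes (filled symbols, with bars from the 25th to the 75th percentile over probes) and median of all other non-control probes (open symbols) on each of the 19 arrays. The AK medians lie between 14.11 and 16.10 and those of the other probes below 10 on every array, and the dotted line marks the limit of 16.61.

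The array medians averaged 15.54 ± 0.42 for root, 15.40 ± 0.07 for panicle, 15.31 ± 0.61 for callus, 14.45 ± 0.37 for IR64 shoot and 14.71 ± 0.13 for NB shoot (mean ± SD over 4 arrays, 3 for panicle). All root and panicle arrays were above all NB shoot arrays. The callus arrays overlapped those of root, of panicle and of NB shoot, and the arrays of IR64 shoot overlapped those of NB shoot. Root, panicle and callus therefore did not differ beyond their spread, nor did the shoots of the varieties. The callus level was 0.61 above that of NB shoot over all arrays and 0.09 above it without callus replicate 2. The IR64 shoot level was 0.26 below that of NB shoot (-0.26), and 0.058 above it without IR64 replicate 1. These levels are a description without a test, because the S1 and S2 arrays of a replicate number name the same RNA source in the labels and leave at most 2 sources a tissue.

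Array brightness was compared with these levels. The highest AK medians, 70301 on root replicate 2 of S2 and 65336 on callus replicate 2 of S2, came from arrays whose median background-subtracted signal over all probes was 47.9 and 44.9. The same measure was 126 on root replicate 1 of S2 and 179 on callus replicate 1 of S2, where the AK medians were 40352 and 28877. In callus on S1 the measure was 167 and 100 on replicates 1 and 2, with AK medians of 28133 and 51380. In IR64 shoot it was 91.7 and 54.7 on S1, with AK medians of 18216 and 26637. On S2 it was 92.9 and 37.5 in IR64 shoot, with AK medians of 17621 and 29033. Other pairs followed this less or not at all. In panicle on S1 the measure was 115 and 116, with AK medians of 45169 and 43896. Brightness was 114 and 113 on root replicates 1 and 2 of S1, where the AK medians were 36475 and 49927. In NB shoot it was 100.3 on replicate 1 of S1 and 56.1 on replicate 2, with AK medians of 27359 and 23486, and 82.0 and 40.7 on S2, with AK medians of 27292 and 29036. All replicate 2 arrays were scanned on 1 date and the replicate 1 arrays on 3 others. Among replicate 1 arrays, NB shoot was alone on its date, callus and IR64 shoot shared a date, and root and panicle shared another. Scan date and tissue are therefore partly confounded. The part of brightness and scan date in the AK level was not tested.

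The limit of 100000 was reached by many AK probes. Of the 1028 probes, 17 were at the limit on all 19 arrays, 592 on at least 1 array and 436 on none. Saturated spots were kept, and 100 probes were saturated on at least 1 array and 0 on all. A difference in which the brighter tissue is at the limit is therefore smaller than that of the unlimited signals. A tissue with every array at the limit also has a spread of 0. For such probes the SE and p-values given below do not measure the replicate spread of that tissue. Detection was nearly complete, with 1019 probes detected on all 19 arrays. The 9 others were missing in 1 tissue each. AK058875, AK061619, AK061740 and AK072387 were not detected on 1 to 3 callus arrays, AK062819, AK067852, AK099053 and AK105340 on 1 or 2 IR64 arrays, and AK109434 on all 4 root arrays.

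Because each AK probe was on both designs, its value could be read again on the same RNA. The correlation across AK probes of the same source between designs ran from 0.916 to 0.980 over 9 source pairs, and that between replicates on S1 from 0.909 to 0.977. These points share the probe sequences and, between designs, the RNA. The SD between the designs for the same source had a median of 0.22 over probes. The SD between replicates had a median of 0.30 on S1 and 0.48 on S2. The SD over the means of the 4 NB tissues had a median of 0.63, a 5th percentile of 0.11 and a 95th percentile of 1.68. It exceeded the probe's replicate SD in 761 of 1028 probes and the SD between designs in 894. The range of the 4 NB means was under 1 log2 unit in 327 probes, 1 to 2 units in 413, 2 to 4 units in 251 and at least 4 units in 37.

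Tissues were compared with limma on each design over all probes detected in at least 1 group (36868 on S1 and 36117 on S2, or 36114 on S2 for pairs with panicle), with Benjamini-Hochberg adjustment over all of them. A probe was called at an adjusted p below 0.05, and it counts below when it was called on S1 and on S2 in the same direction. No AK probe was called in opposite directions on the designs in any of the 7 comparisons. At most 2 arrays a group entered each fit. Nothing says that the sources of a tissue came from separate plants. Per the methods, RNA was pooled from several plants and a sample was hybridized more than once, so p-values may measure technical spread only.

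Root was set against shoot to show how a below-ground organ differs from a leafy one. On both designs 117 AK probes were higher in root and 39 were lower. On S1 alone 321 were higher and 85 lower, where 15.0% and 10.6% of all probes tested were called in those directions. On S2 alone 117 were higher and 39 lower, against 8.12% and 5.44% of all probes tested. The median AK probe differed by 0.58 on S1 and 0.66 on S2, while the median of all probes tested differed by -0.05 and -0.09. Thus the AK probes as a class stood higher in root than in shoot on this scaling. When each array was centred on its own AK median instead, 62 probes were called higher and 129 lower. A block for scan date gave 287 higher and 41 lower. In a fit with that block NB shoot replicate 1, alone on its date, adds nothing to any difference from shoot. Within the scan date that the tissues shared, with 1 array a tissue and design, 116 of the 117 and 38 (S1) or 39 (S2) of the 39 kept their direction. Those arrays had also entered the calls here and in the comparisons below, so that this is not an independent check. Without NB shoot replicate 2, 23 higher and 14 lower probes were called, without NB shoot replicate 1, 26 and 15, without NB root replicate 1, 53 and 18, and without NB root replicate 2, 24 and 23.

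Among the 117 probes the mean difference ran from 1.47 to 6.59, with a median of 2.38. The largest was that of AK103001 (clone J033116G04), which is named because of its value, with a mean level of 16.61 in root and 10.02 in NB shoot. Among the 39 lower probes the smallest difference was -1.62 and the median -2.95. The most extreme was AK109434, which no root array detected and for which bounds are given below.

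Panicle was compared with shoot in the same way. On both designs 23 AK probes were higher in panicle and 4 were lower. On S1 alone 307 were higher and 40 lower, where 16.5% and 10.9% of all probes were called, and on S2 alone, with a single panicle array, 23 were higher and 5 lower, where 2.36% and 1.65% were called. The AK median differed by 0.67 on S1 and by 0.41 on S2, where all probes tested had medians of -0.05 and -0.11. Centred on the AK median, 30 were higher and 34 lower. The split was 52 to 26 with the 75th percentile as the scale and 45 to 19 after quantile normalization. A block for scan date gave 49 higher and 1 lower, and within the shared date on S1 all 23 and all 4 kept their direction. On S2 the single panicle array shared its scan date with root only. With that block panicle is therefore compared with shoot or callus on S2 only by way of root. With only panicle and shoot in the limma fit no probe was called on both designs, and at an unadjusted p below 0.05 there were 150 higher and 49 lower. Without either NB shoot replicate 2 probes were called higher and 0 lower. Without either IR64 replicate it was 6 and 0, and without either root replicate 7 and 1.

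Callus and shoot gave similar counts to root and shoot, and these comparisons share the NB shoot arrays. On both designs 108 AK probes were higher in callus and 60 were lower. On S1 alone 314 were higher and 115 lower, where 18.1% and 14.8% of all probes were called, and on S2 alone 108 were higher and 60 lower, where 9.16% and 6.51% were called. The AK median differed by 0.52 on S1 and by 0.42 on S2, where all probes tested had medians of -0.09 and -0.10. Centred on the AK median, 88 were higher and 147 lower. A block for scan date gave 300 higher and 72 lower. Within the shared date 108 (S1) or 106 (S2) of the 108 and all 60 kept their direction. With only the groups compared in the fit, 42 were higher and 44 lower. Without NB callus replicate 2, 33 were higher and 62 lower, without NB shoot replicate 1, 24 and 32, and without NB shoot replicate 2, 15 and 31. The lower probes reached further than the higher ones. Differences ran from 1.43 to 4.72 among the 108 higher probes, with a median of 2.36, and among the 60 lower probes the smallest was -1.49 and the median -3.46. The most extreme was AK058875 (clone 001-006-F10), named because of its value, which was not well above background on 3 of the 4 callus arrays and was at the limit in NB shoot. On S1, where neither callus array detected it, NB shoot was at least 641-fold higher than callus.

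**Figure D2:**
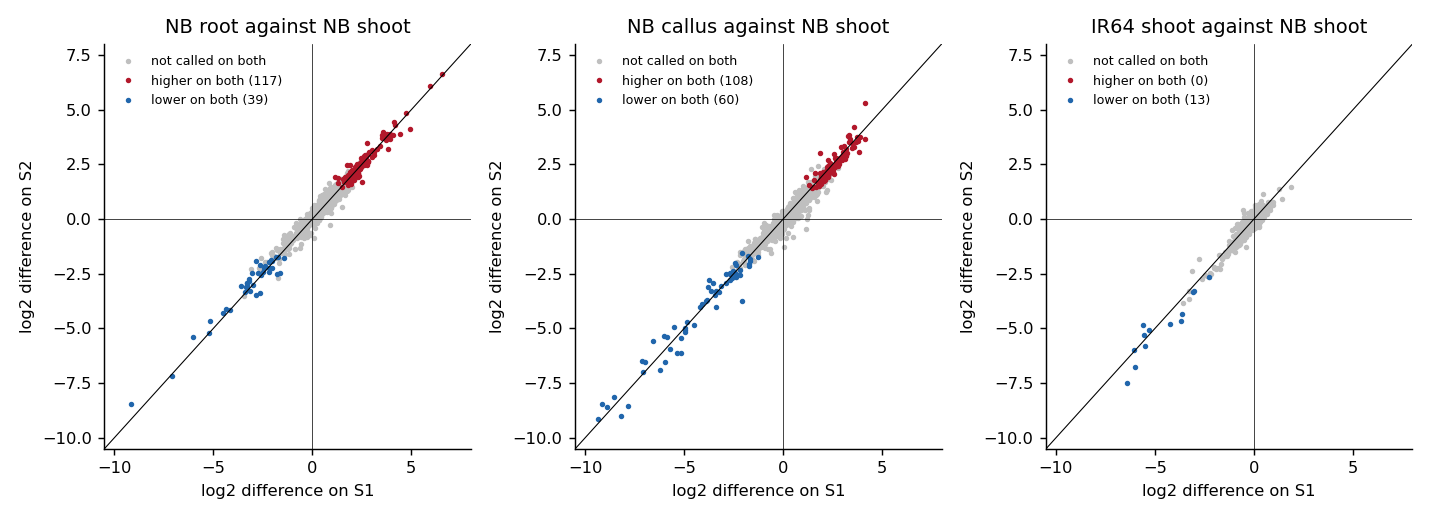
Log2 difference of each of the 1028 AK probes on S2 (vertical) against that on S1 (horizontal) for root, callus and IR64 shoot, each against NB shoot, with the line of equality. Red points were called higher on both designs (117, 108 and 0 probes), blue points lower (39, 60 and 13), and grey points were not called on both.

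The differences measured on the designs followed each other closely, with a correlation across AK probes of 0.985 for root, 0.949 for panicle and 0.986 for callus, each against NB shoot, and of 0.963 for IR64 shoot against NB shoot. These points share the RNA and the probe sequences of both designs. In the pairs of root, panicle and callus the correlation was 0.927 to 0.976.

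The 3 tissues other than shoot were also compared with each other. Panicle against root gave 10 higher and 6 lower AK probes on both designs. On S1 76 were higher and 37 lower (7.68% and 6.01% of all probes tested), and on S2 10 were higher and 7 lower (1.48% and 1.95%). The median AK difference was 0.00 on S1 and -0.16 on S2. The split was 18 to 2 when centred on the AK median, 28 to 17 with a block for scan date, 6 to 4 without saturated spots, 8 to 2 without any 1 shoot replicate of either variety and 6 to 0 without either root replicate. All 16 kept their direction within the shared date on S1. For the pairs among root, panicle and callus, no probe was called on both designs with only the groups compared in the limma fit. At an unadjusted p below 0.05 that fit gave 26 higher and 26 lower for panicle against root, 26 and 84 for callus against root and 3 and 45 for callus against panicle.

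Callus against root gave 7 higher and 49 lower AK probes on both designs. On S1 58 were higher and 117 lower (8.63% and 9.62% of all probes), and on S2 7 were higher and 49 lower (2.49% and 4.68%). The split was 29 to 57 when centred on the AK median, 29 to 76 after quantile normalization and 23 to 67 with a block for scan date. It was 3 to 30 without root replicate 1 and 3 to 21 without root replicate 2. Within the shared date all 7 and, of the 49, 49 on S1 and 48 on S2 kept their direction.

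Callus against panicle gave 1 higher AK probe, AK064899, and 32 lower ones on both designs. On S1 40 were higher and 115 lower (7.05% and 10.7% of all probes), and on S2 2 were higher and 32 lower (1.22% and 2.45%). The split was 6 to 49 when centred on the AK median, 10 to 48 after quantile normalization and 1 to 36 with a block for scan date. All 33 kept their direction within the shared date on S1. The lower calls were thus in the majority in callus against root and against panicle, under each of these scalings. All probes tested also had more lower than higher calls in these pairs. The AK shares called lower were near theirs, at 11.4% (S1) and 4.77% (S2) against root and 11.2% and 3.11% against panicle. The AK shares called higher were smaller than theirs, at 5.64% and 0.681% against root and 3.89% and 0.195% against panicle.

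Over the 6 pairs of NB tissues 237 AK probes were called on both designs in at least 1 pair and 791 in none. Higher than in shoot in both root and callus were 68, and lower in both were 26. In root, panicle and callus alike, 15 probes were higher than in shoot and 2 were lower. No share over all probes stands beside these counts, because the other probes were on 1 design each. The comparisons with shoot use the same NB shoot arrays, so their calls are not independent. The 15 had means of 10.02 to 14.22 in NB shoot. AK103001 and AK060340 were the dimmest of them in NB shoot, at 10.02 each. AK060340 and AK072559 are described below. AK103001 averaged 16.61 in root, 16.61 in panicle and 12.19 in callus. In IR64 shoot the 15 averaged 10.29 to 14.15 and the 2 lower ones 16.61. The 2 lower ones were AK059443 and AK061626, both at the limit of 16.61 in NB shoot. AK061626 (clone 001-034-E09), named after its values were seen, had 12.44 in root, 13.99 in panicle and 11.31 in callus.

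By the mean level alone, 279 AK probes were highest in root, 177 in panicle, 257 in callus and 138 in NB shoot, while in 177 the highest level was shared by tissues at the signal limit. Without the limit and with each array centred on the AK median, the numbers for root, panicle, callus and NB shoot were 182, 170, 326 and 350, so that the tissue with most peaks depended on the processing. A stricter count took probes called on S1 against each of the other 3 NB tissues. Higher in root were 18 AK probes, where 3.39% of all probes tested met the rule, and lower in root 12, where 0.692% did. Higher in panicle were 10 (3.02%) and lower 3 (0.355%). Higher in callus were 14 (3.65%) and lower 44 (2.39%). Higher in NB shoot were 26 (5.98%) and lower 172 (6.21%). After centring on the AK median the numbers higher and lower on S1 were 14 and 17 in root, 10 and 4 in panicle, 36 and 50 in callus, and 88 and 76 in NB shoot. On S2, at the same threshold, far fewer met the rule. There 3 AK probes were higher in root (1.38% of all probes tested) and 3 lower (0.108%), 1 was higher in panicle (0.579%) and 1 lower (0.0222%), 0 were higher in callus (0.756%) and 21 lower (0.568%), and 2 were higher in NB shoot (1.41%) and 15 lower (0.712%). The probes named below were therefore chosen on S1 calls with the same direction on S2, and several of their differences were not called on S2.

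The AK probes that stood highest in root were AK105219 (clone 001-110-E07), AK111617 (J013102L16) and AK105175 (001-104-H09). AK105219 was at the limit of 16.61 on all 4 root arrays, against 13.15 to 13.24 in panicle, 12.94 to 13.83 in callus, 13.76 to 14.45 in IR64 shoot and 14.09, 13.40, 13.59 and 13.52 in NB shoot. No array of another tissue reached the root arrays. Its difference between root and NB shoot was 2.87 ± 0.31 (SE) on S1 and 3.06 ± 0.40 on S2 (limma, adjusted p = 0.000121 and 0.00315). AK111617 was also at the limit on all 4 root arrays, and had 13.05 to 13.44 in panicle, 12.39 to 13.24 in callus, 13.09 to 13.87 in IR64 shoot and 13.63 to 14.33 in NB shoot.

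AK105175 was graded over the tissues. It had 15.33, 15.63, 15.26 and 16.34 on the root arrays, 13.31, 13.54 and 13.03 in panicle, 12.36, 12.82, 12.22 and 13.18 in callus, 11.09, 10.66, 10.83 and 10.85 in IR64 shoot and 10.84, 10.70, 11.59 and 10.35 in NB shoot. Root, panicle and NB shoot did not overlap one another, while 1 callus array, replicate 2 of S2, lay above the panicle array of S2. Root exceeded NB shoot 27.3-fold, by 4.71 ± 0.31 on S1 and 4.83 ± 0.60 on S2 (limma, adjusted p = 8.32e-06 and 0.00253). The probe was among the 3 AK probes with the lowest mean over the 5 groups, at 12.65.

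Lowest in root was AK109434. It had 6.17, 6.63, 6.95 and 7.58 on the root arrays, none of which was well above background. The same probe had 16.12, 16.37 and 16.18 in panicle, 13.05, 14.09, 13.18 and 14.66 in callus, 12.85 to 14.18 in IR64 shoot and 15.63, 15.48, 15.61 and 15.86 in NB shoot. Set against the lowest detected signal of the root arrays or its own value, whichever was higher, the level in NB shoot was at least 317-fold higher on S1 and at least 273-fold higher on S2 than in root. Panicle was at least 512-fold and 372-fold, and callus at least 80.2-fold and 77.7-fold, higher than root (limma, adjusted p = 2.73e-06 and 0.000562 against NB shoot). AK060726 (clone 001-031-H01) had 11.51, 11.30, 11.43 and 11.35 in root and was at the limit on every array of the other tissues. It was lower in root than in NB shoot by -5.20 ± 0.26 on S1 and -5.22 ± 0.35 on S2 (adjusted p = 2.89e-06 and 0.000532). The SE was also 0.26 and 0.35 for AK058349, which was at the limit on every array. Those of AK060726 thus come mostly from the spread that limma shares over probes.

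In panicle the clearest probe was AK059231 (clone 001-024-E05). It was at the limit on all 3 panicle arrays and had 9.86, 9.70, 8.60 and 8.63 in root, 10.62, 10.42, 9.30 and 10.15 in callus, 11.95, 11.87, 11.15 and 11.64 in IR64 shoot and 11.43, 11.43, 10.98 and 11.16 in NB shoot. Its signal in the other tissues made it the AK probe with the lowest mean over the groups, at 11.77. Panicle exceeded NB shoot by 5.18 ± 0.27 on S1 and 5.54 ± 0.53 on S2 (limma, adjusted p = 4.37e-06 and 0.0049), and exceeded root at least 170-fold, since the panicle spots were saturated. AK059409 (001-027-C05) had 15.97, 15.60 and 15.75 in panicle and 12.62 to 13.94 on all other arrays. AK100153 (J023015O19) had 16.58, 16.13 and 16.26 in panicle and 13.12 to 15.20 elsewhere. Its difference from root was 1.84 on S1 (adjusted p = 0.00402) and 1.34 on S2 (adjusted p = 0.414). On S1 it was not called without panicle replicate 1 (adjusted p = 0.0508).

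Only 3 probes were lower in panicle than in each other NB tissue on S1. AK061044 (clone 006-205-E01) had 14.18, 14.03 and 14.03 in panicle, against 16.14 to 16.61 in root and 16.61 in callus and NB shoot on the arrays measured. Its spot on callus replicate 2 of S2 was marked as an outlier and left out. AK062653 (001-105-E09) had 14.62, 13.98 and 14.30 in panicle and 16.04 to 16.61 in the other NB tissues. Its call against callus was lost when only the groups compared entered the fit (adjusted p = 0.0624).

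**Figure D3:**
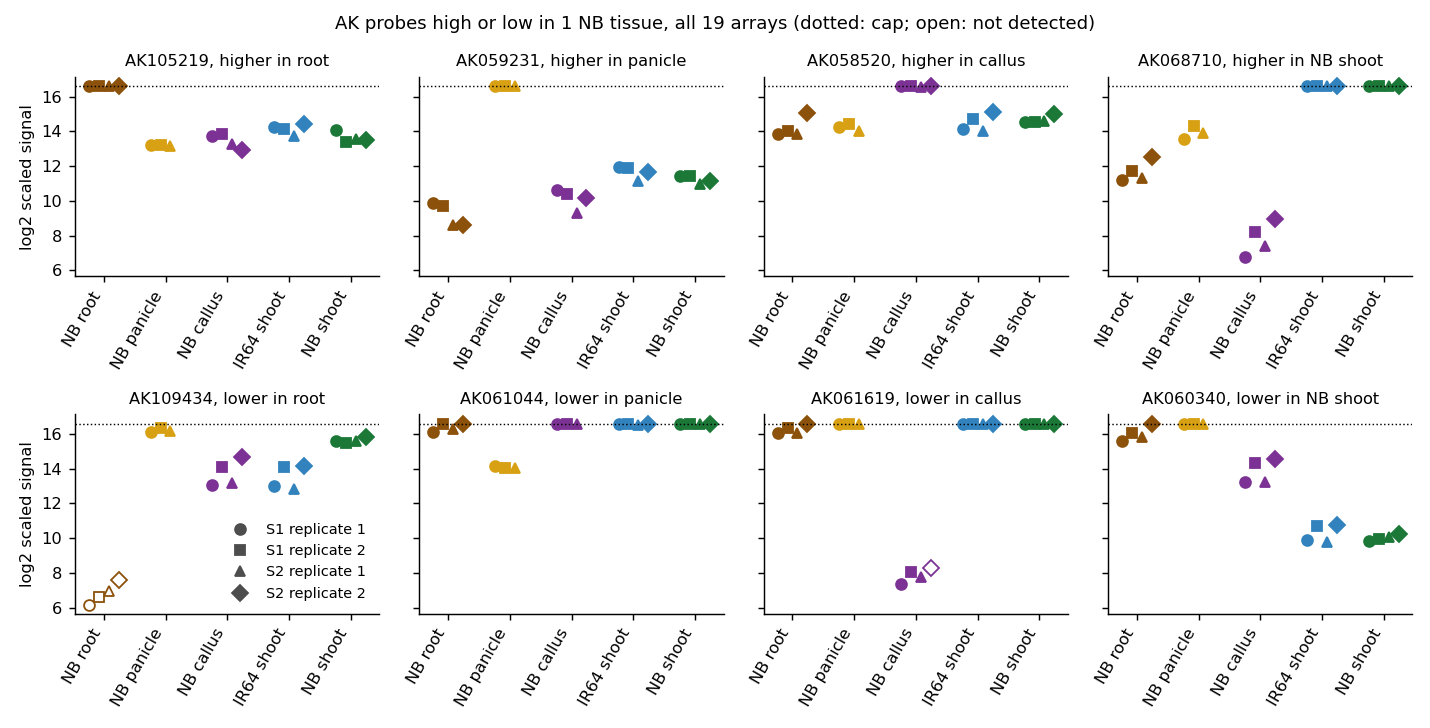
Log2 scaled signal on all 19 arrays of 8 AK probes, each higher or lower in 1 NB tissue than in the other 3. Symbols mark design and replicate, open symbols spots that were not detected, and the dotted line the limit of 16.61, which AK105219 reached on the 4 root arrays and AK059231 on the 3 panicle arrays.

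The 3 probes highest in callus varied more between replicates. AK064899 (clone J013000L13) had 14.42, 15.49, 14.96 and 16.61 in callus, 12.70 to 13.97 in root, 11.37 to 12.16 in panicle, 10.82 to 11.53 in IR64 shoot and 11.57 to 12.33 in NB shoot. No other array reached the callus arrays. Callus exceeded NB shoot by 3.26 ± 0.45 on S1 and 3.78 ± 0.59 on S2 (limma, adjusted p = 0.000494 and 0.00605). The difference from root was 1.91 on S1 (adjusted p = 0.0153) and 2.04 on S2, where it was not called (adjusted p = 0.0943). On S1 it was not called without callus replicate 2, without root replicate 1 or with only the groups compared (highest adjusted p = 0.126). AK058520 (001-016-H06) had 16.58 to 16.61 in callus and 13.84 to 15.13 on all other arrays. AK105366 (001-119-G03) had 15.48, 16.50, 15.47 and 16.61 in callus and 12.30 to 14.58 elsewhere. Its difference from panicle was 1.81 on S1 (adjusted p = 0.0111) and 1.98 on S2, where it was not called (adjusted p = 0.204). On S1 it was not called under 4 alternatives, namely without callus replicate 2, without either panicle replicate and with only the groups compared (highest adjusted p = 0.0997).

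Among the probes low in callus, AK061619 (clone 001-033-E02) had 7.39, 8.08, 7.74 and 8.27 in callus, the last not well above background, and 16.06, 16.34, 16.08 and 16.59 in root. It was at the limit on every panicle, IR64 shoot and NB shoot array. Callus was lower than root by -8.47 ± 0.31 on S1 and -8.32 ± 0.40 on S2 (limma, adjusted p = 2.05e-06 and 0.00042). AK060904 (001-035-E07) had 10.10, 9.12, 10.63 and 9.51 in callus, 15.81 to 16.61 in root and 16.61 on all other arrays. It was lower in callus than in NB shoot by -7.00 ± 0.36 on S1 and -6.54 ± 0.48 on S2 (adjusted p = 2.12e-06 and 0.000406).

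Among the probes highest in NB shoot, AK068710 (clone J013159K10) separated all 4 NB tissues. It had 11.19, 11.71, 11.32 and 12.55 in root, 13.57, 14.29 and 13.89 in panicle, 6.75, 8.20, 7.37 and 8.94 in callus, and 16.61 on every shoot array of both varieties. Callus was lower than NB shoot by -9.14 ± 0.47 on S1 and -8.45 ± 0.63 on S2 (limma, adjusted p = 2.12e-06 and 0.000411). Root was lower than NB shoot by -5.16 and -4.67 (adjusted p = 4.54e-05 and 0.00331), and panicle by -2.68 and -2.72 (adjusted p = 0.0028 and 0.109). AK099961 (J013126G09) had 12.73 to 13.89 in root, 12.92 to 13.61 in panicle, 12.84 to 14.75 in callus, 15.57 to 16.61 in IR64 shoot and 16.55 to 16.61 in NB shoot. AK068554 (J013155B11) had 12.98 to 15.01 in root, 13.61 to 14.29 in panicle, 11.97 to 14.25 in callus and 16.61 on all shoot arrays. NB shoot exceeded panicle by 2.63 on average over the designs, with panicle against shoot called on S1 (adjusted p = 0.00645) but not on S2 (adjusted p = 0.119). On S1 the call was lost without panicle replicate 1 (adjusted p = 0.0522).

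The reverse pattern was that of AK060340 (clone 001-008-D02). It had 15.60, 16.05, 15.84 and 16.61 in root, 16.61 on the 3 panicle arrays, 13.26, 14.33, 13.22 and 14.57 in callus, 9.89, 10.70, 9.81 and 10.74 in IR64 shoot and 9.83, 9.97, 10.07 and 10.22 in NB shoot. The shoots of the varieties overlapped and lay far below the other tissues. Panicle exceeded NB shoot by 6.71 ± 0.42 on S1 and 6.46 ± 0.72 on S2 (limma, adjusted p = 9.85e-06 and 0.00699), and root exceeded it by 5.92 and 6.08. Callus exceeded NB shoot 14.2-fold. AK072559 (J023132A10) had 16.36 to 16.61 in root, 15.12 to 15.82 in panicle, 14.89 to 16.61 in callus, 11.37 to 12.56 in IR64 shoot and 11.37 to 13.09 in NB shoot.

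The study's text names AK059443, AK058489 and AK058349 as short clones from which the part of the locus that encodes a known domain is missing. The domain is thus a property of the locus and not of the clone. The study proposes that some such clones may have been rearranged in E. coli, in which case the plant RNA may hold the domain. Whether the probe reads RNA with or without the domain is not known. The locus of AK059443 (clone 001-027-H11) encodes a B-box domain, a zinc-binding fold found in plant regulators of light responses and flowering, which the clone lacks. It had 13.61, 13.61, 13.23 and 13.96 in root, 14.69, 14.48 and 14.13 in panicle, 12.40, 11.86, 11.48 and 12.03 in callus, and 16.61 on all shoot arrays of both varieties. The 4 NB tissues did not overlap. Root was lower than NB shoot by -3.01 on average over the designs (limma, adjusted p = 6.67e-05 and 0.00398). Panicle was lower by -2.02 and -2.48 (adjusted p = 0.000931 and 0.0448), and callus by -4.48 and -4.85 (adjusted p = 6.61e-06 and 0.000705).

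The clone of AK058489 (001-016-D12) lacks the mitochondrial carrier domain of its locus, which marks a family of proteins that move metabolites across the inner mitochondrial membrane. The probe had 15.16, 15.81, 14.77 and 15.82 in callus and 16.53 to 16.61 on all other arrays. Callus was lower than NB shoot by -1.12 ± 0.30 on S1 (limma, adjusted p = 0.0175) and the value on S2 was -1.30 ± 0.44 (adjusted p = 0.095). The clone of AK058349 (001-014-E05) lacks the AP2 domain of its locus, the DNA-binding part of a plant family of transcription factors. The probe was at the limit of 16.61 on all 19 arrays, as were AK059150 and AK061464 and 14 others. With the limit in place no difference between tissues could be read from it. The limit was set in processing, and spots of AK058349 were saturated on only 1 root and 1 callus array.

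The least variable probes were sought among the 434 that were detected on all arrays and neither saturated nor at the limit on any. AK062466 (clone 001-103-E02) had the smallest range of the 5 group means, 0.25, with 13.65 ± 0.34 in root, 13.50 ± 0.21 in panicle, 13.40 ± 0.22 in callus, 13.47 ± 0.39 in IR64 shoot and 13.65 ± 0.30 in NB shoot (SD, n = 4 arrays, 3 for panicle). AK102361 (J033091I10) and AK111706 (J023012M11) had ranges of 0.31 and 0.33. Their group means were as close, but their SD within a tissue reached 0.88 and 1.08, both in callus. At the low end of the class, AK108097 (002-139-A09) had a mean of 12.38 over the groups, still above the median of the other probes.

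The designs disagreed most for AK099791 (clone J013097C16), which was lower on S1 than on S2 by -1.25 on average over sources, and for AK099900 (J013114D14), which was higher on S1 by 1.06. AK099791 had 13.92 and 14.79 on S1 against 15.59 and 16.15 on S2 in root, and 14.05 and 13.96 on S1 against 15.81 and 14.16 on S2 in NB shoot. AK099900 had 13.61 and 12.41 on S1 and 11.71 and 10.04 on S2 in callus, and 15.27 and 14.94 on S1 and 14.58 and 14.70 on S2 in NB shoot. For AK099900 callus was lower than NB shoot on both designs, by -2.09 on S1 and -3.76 on S2 (limma, adjusted p = 0.0059 and 0.00736).

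IR64 shoot was set against NB shoot to compare an indica with a japonica variety. On both designs 13 AK probes were lower in IR64 and 0 were higher (limma). At an unadjusted p below 0.05 on both designs, 48 were lower and 2 higher. On S1 alone 1 was higher and 29 were lower, where 0.703% and 2.09% of all probes tested were called, and on S2 alone 0 were higher and 13 lower, where 0.0498% and 0.573% were called. The AK median differed by -0.07 on S1 and by -0.21 on S2, where all probes tested had a median of 0.03 on either design. All 13 were lower within the shared scan date on both designs, and a block for scan date gave 15 lower and 0 higher. With only the 2 shoot groups in the limma fit, or without any 1 shoot replicate, no probe was called on both designs. At an unadjusted p below 0.05, 54 probes were then lower and 2 higher with only the shoots, 26 and 1 without IR64 replicate 1, 59 and 1 without IR64 replicate 2, 37 and 1 without NB shoot replicate 1, and 30 and 0 without NB shoot replicate 2. The probes were designed on Nipponbare sequence, so that in IR64 poorer binding and lower RNA cannot be told apart.

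The 13 probes fell far in IR64. Their mean difference ran from -2.45 to -6.96, with a median of -5.19. In all 13 the IR64 mean was also below the mean of each NB tissue, and 9 of the 13 were still detected on all 4 IR64 arrays. AK062819 (clone 001-107-E12) had 10.00, 9.02, 9.07 and 8.25 in IR64 shoot and 15.90, 15.94, 16.01 and 16.32 in NB shoot, with 14.64 to 16.61 on the other arrays. The difference was -6.41 ± 0.44 on S1 and -7.50 ± 0.59 on S2 (limma, adjusted p = 0.000121 and 0.00588). AK067852 (J013122B13) had 9.47, 8.40, 9.05 and 8.33 in IR64 shoot and 14.94, 14.98, 15.13 and 15.75 in NB shoot. AK099053 (J013147L18) had 7.71 to 8.62 in IR64 shoot and 14.34, 14.09, 14.22 and 14.32 in NB shoot. For AK062819, 1 of the IR64 arrays was not well above background, and for AK067852 and AK099053, 2 each. On S1 these 3 probes were called under all 21 alternatives, and on S2 under 16 of 21.

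The other 10 differed by less. AK059529 (clone 001-029-D06) averaged 11.19 in IR64 shoot and was at 16.61 in NB shoot and every other NB tissue. AK058962 (001-020-C03) averaged 10.95 and AK105589 (001-129-A05) 11.37 in IR64 shoot, each against 16.61 in NB shoot. AK105340 (001-118-G06) averaged 8.41 in IR64 shoot and 13.60 in NB shoot. AK063237, AK066323, AK109345, AK100059, AK061062 and AK066658 averaged 10.90 to 13.40 in IR64 shoot and 15.07 to 16.37 in NB shoot. The smallest difference was that of AK066658 (J013071N11), at 13.40 in IR64 shoot and 15.85 in NB shoot.

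**Figure D4:**
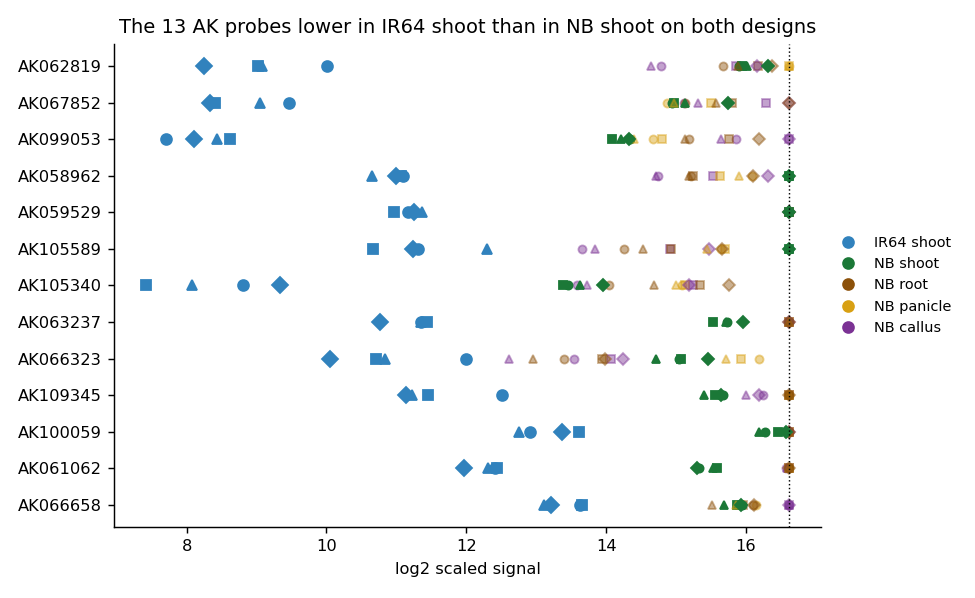
Log2 scaled signal of the 13 AK probes called lower in IR64 shoot than in NB shoot on both designs, 1 row a probe, with symbols for design and replicate as in the other plots (circle and square, S1 replicates 1 and 2, triangle and diamond, S2 replicates 1 and 2). All IR64 arrays (blue) lie left of all NB arrays, and the dotted line marks the limit of 16.61.

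The clone names of the probes fall into 6 groups by their first characters, with 378 names that start with 001, 203 with J01, 194 with J02, 129 with J03, 73 with 002 and 51 with 006. The study lists libraries coded J01 for green shoot, J02 for panicle after flowering and J03 for calli, but does not say that clone names carry these codes. The grouping was made after the values were seen and is given without a test. Relative to the median of all AK probes on the same array, without the limit of 100000, the median J01 probe lay at 0.02 in root, -0.14 in panicle, -0.06 in callus, 0.04 in IR64 shoot and 0.08 in NB shoot (means over arrays). The median J02 probe lay at 0.13 in root, 0.16 in panicle, -0.08 in callus, -0.06 in IR64 shoot and -0.09 in NB shoot. The median J03 probe lay at -0.10 in root, -0.23 in panicle, 0.09 in callus, -0.03 in IR64 shoot and -0.10 in NB shoot. Among NB tissues J01 was highest in shoot, J02 in panicle and J03 in callus. The peak in panicle was not particular to J02, since the 001 group, the largest, lay at 0.09 in root, 0.18 in panicle, 0.12 in callus, 0.08 in IR64 shoot and 0.11 in NB shoot, and the 006 group was also highest in panicle, at 0.02. In callus the 001 group averaged 0.12 and J03 0.09, with overlapping arrays. The 002 group was highest in NB shoot among NB tissues, at -0.33, with arrays from -1.02 to -0.02.

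The groups were separated by little. Probe by probe, without the limit and centred on the AK median, 35.5% of J01 probes were highest in NB shoot, against 34.0% of all AK probes. In panicle 17.5% of J02 probes were highest, against 16.5%, and in callus 36.4% of J03 probes, against 31.7%. Other groups had larger shares in NB shoot (002, 41.1%) and in panicle (006, 21.6%, and 002, 17.8%). In callus no group exceeded J03, and 001 was next at 34.7%. For J01 the NB shoot arrays (0.07 to 0.10) overlapped those of root (-0.03 to 0.09) and lay above all panicle and callus arrays. For J02 the panicle arrays (0.12 to 0.19) overlapped those of root (0.08 to 0.20) and lay above all callus and NB shoot arrays. For J03 the callus arrays (0.06 to 0.11) lay above all root and panicle arrays and overlapped NB shoot, where 1 array had 0.07 and the other 3 had -0.16 to -0.15. In callus against NB shoot 8.53% of the 129 J03 probes were called higher on both designs, against 10.5% of all AK probes, and 0 were called lower (limma), against 5.84%. In panicle against NB shoot 2.58% of the 194 J02 probes were higher, against 2.24% of all AK probes, and in root against NB shoot 16.5%, against 11.4%.

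**Figure D5:**
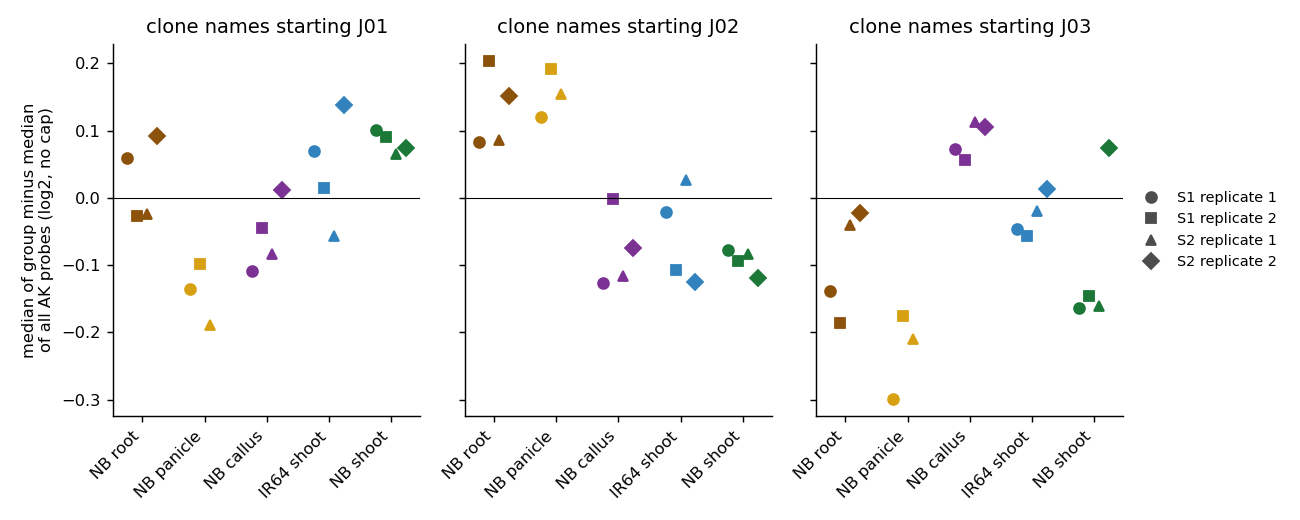
Median of the AK probes whose clone names start with J01, J02 or J03 minus the median of all AK probes on the same array, in log2 units without the signal limit, for each of the 19 arrays by tissue. Among NB tissues the J01 mean is highest in shoot (0.08), the J02 mean in panicle (0.16) and the J03 mean in callus (0.09), each overlapping 1 other NB tissue.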

How the data were processed

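Total RNA of 5 rice tissue groups was measured on 19 self-hybridized Agilent arrays. The file headers name Feature Extraction 8.1.1.1 for the step run by the authors, while the submitters' notes name version 7.5. The deposited processed signal intensity is background-subtracted and dye-normalized within each array (linear and LOWESS), not between arrays. The deposited flags mark a spot as well above background at p 0.01 and above 2.6 SD. Log ratios of the channels were not used. Following the methods, a median of 1000 and a limit of 100000 were set, here per channel over non-control probes. Then log2 was taken and the channels were averaged. Spots marked as outliers were left out (0 to 25 AK probes an array) and saturated spots kept (5 to 39 AK probes). The number of arrays limits the precision.

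Groups came from the sample titles. All 5 groups of a design entered 1 fit in limma 3.58.1 (lmFit, eBayes, two-sided, R 4.3.3). The model was tested on simulated S1 arrays with independent noise and no signal limit. In the real data same-numbered arrays deviated together and many AK probes reached the limit, so the simulation does not check the calls given here. Tables and plots used Python 3.11.15, pandas 2.3.3, numpy 2.4.6 and matplotlib 3.10.9. Alternatives were another scaling, background correction, no limit, saturated spots or the dim filter removed, blocks, fewer groups and each replicate left out. A clone-name grouping and a joint change of limit and centring were added after the values were seen.

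Named probes were, per NB tissue, up to 3 called higher and 2 called lower on S1 than in each other NB tissue, with the same signs on S2 and no overlap of arrays, ranked by the difference from the nearest tissue. Others were the 3 leading IR64 probes, the 3 least variable, the 3 highest and lowest, the 2 most different between designs, and the 3 whose clones the study lists as lacking a domain. Members and lists were chosen with earlier results of these data known. The planned gene lists were not used, since no table used here annotates the probes.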

Additional observations from a re-analysis of the deposited data

Results flagged for a closer look

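In 108 sets of 4 arrays (a named probe in a tissue) the highest or lowest array was compared with the others, and 11 sets held an array that stood apart. For 4 independent values chance alone gives about 1 in 20 such sets. That rate does not hold here, because arrays of a set share RNA sources. Where the other arrays are tied at the signal limit, any lower value stands apart. Values are log2 scaled signals.

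AK108097 was low on replicate 2 of S2, at 11.12 in root (other root arrays 13.02 to 13.15) and 10.33 in callus (others 12.35 to 12.67). AK058520 was high on the same replicate and design, at 15.05 in root (others 13.84 to 14.03) and 15.03 in NB shoot (others 14.52 to 14.58). AK099791 had 15.81 in NB shoot on replicate 1 of S2 (others 13.96 to 14.16). AK064899 had 10.82 in IR64 shoot on replicate 1 of S1 (others 11.47 to 11.53).

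The other 5 concern sets of which the rest of the arrays were at or next to the signal limit. AK072559 had 16.36 in root on replicate 1 of S1, where the others were at 16.61. On replicate 1 of S2, AK099961 had 16.55 in NB shoot, AK061044 had 16.53 in IR64 shoot, and AK058489 had 16.60 in IR64 shoot and 16.58 in NB shoot, each with the others at 16.61.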

How the results depend on the processing

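In the order root, panicle and callus against NB shoot, panicle and callus against root, and callus against panicle, the numbers of AK probes called on both designs were 156, 27, 168, 16, 56 and 33. They were 265, 78, 304, 40, 112 and 59 with the 75th percentile as the scale, 257, 64, 288, 33, 105 and 58 after quantile normalization, 455, 223, 440, 120, 238 and 166 with normexp and loess, and 297, 134, 356, 50, 167 and 94 with no limit and centring on the AK median, a setting chosen after seeing the data. With the replicate number as a block (replicate block) they were 458, 245, 441, 66, 199 and 114, and 33 probes were called for IR64 shoot against NB shoot instead of 13. Same-numbered arrays deviated together (correlations of 0.11 to 0.64 on S1 and 0.55 to 0.83 on S2), but there are only 2 numbers. Scan date as a block, where NB shoot replicate 1 was alone on its date, gave 328, 50, 372, 45 and 90 for the first 5. Without the limit the first 3 were 244, 61 and 266. Centring on the AK median alone gave 64 for panicle against shoot, 86 for callus against root and 55 for callus against panicle, and leaving out saturated spots 10 for panicle against root. With only the groups compared in the limma fit, 86 were called for callus against shoot, and 0 for panicle against shoot, all pairs of the other 3 tissues and the varieties. At an unadjusted p below 0.05 that fit had, on both designs, 150 higher and 49 lower for panicle against shoot, 26 and 26 for panicle against root, 26 and 84 for callus against root, 3 and 45 for callus against panicle, and 2 and 54 for the varieties. Normexp gave 20 for the varieties.

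Leaving out 1 replicate at a time, the counts ran from 37 to 189 for root against shoot, 2 to 35 for panicle against shoot, 46 to 168 for callus against shoot, 6 to 18 for panicle against root, 24 to 56 for callus against root, 24 to 34 for callus against panicle and 0 to 13 for the varieties. Where this left 1 array, it was assumed to vary like the other groups. Without panicle replicate 1 no panicle array of S2 is left, so no count exists for those pairs. The AK level minus that of NB shoot ran from 0.52 to 1.15 in root, 0.66 to 0.73 in panicle and 0.09 to 1.12 in callus. In IR64 shoot it ran from -0.58 to 0.058, the last without IR64 replicate 1 and of opposite sign to the value over all arrays (-0.26). For panicle it was 0.51 with the 75th percentile, 0.40 after quantile normalization and 0.45 with normexp.

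Of the values followed for named probes under the alternatives (tested differences, ranges over tissues and differences between designs), 544 kept direction and side of the threshold, 25 lost the call and 0 turned sign. The causes of these changes were not tested. Most of the named probes were chosen for large differences in these same data, and their tissue differences were followed on S1 only. The number of kept values was therefore largely set by the choice and is no independent check. The ranges and the differences between designs had no call to lose, and a range cannot turn sign. With 1 or 2 arrays a group and sources shared between designs, smaller differences were not detectable. Differences above the signal limit were not seen with the limit in place.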
